A study of Mus musculus with 15 samples.

Results

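The genes described here are those that the deposited table places on chromosome 1 and that had a mean of at least 5 CPM (reads of a gene scaled to the total of its library) over the 15 leukemia lines. They number 552 of the 722 listed chromosome 1 genes, while 9707 of all 12545 listed genes passed the same minimum, of which 9374 are autosomal. The question was whether chromosome 1 as a whole, or a piece of it, was higher in 1 line, DKO548, and whether any other line had a shifted piece. The line and the chromosome were chosen by the chromosome medians of these same CPM values, so the levels in DKO548 are given as a description and carry no test. The 3 listed genes just under the minimum were Kif26b (mean 4.87 CPM), Ifi209 (4.88 CPM) and Opn3 (4.92 CPM), and the 3 just above it were Psen2 (5.03 CPM), Tma7-ps (5.09 CPM) and Coq8a (5.60 CPM).

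RNA-sequencing was done on T cell leukemia lines grown from the thymus of FVB/NJ mice, with 1 library per line and no treatment. The 8 DKO lines have the genotype E2a-/-LefF/F LckCre+, in which the Lck promoter drives Cre in T-lineage cells to delete floxed Lef1 alleles. The other 7 lines are E2a-/-, so all 15 lines lack the transcription factor gene E2a, and no line of normal thymocytes is part of the table. Each line is a separate leukemia, the lines were kept in OPTI-MEM with serum, and a line is the only replicate of itself. Reads on listed genes numbered 4847970 in DKO79.9 to 21681586 in SKO95, with 17377287 in DKO548, so that 3 reads are worth 0.173 CPM in DKO548 and 0.618 CPM in DKO79.9. No pair of lines agreed within sampling noise. All 7 T-lineage markers were listed and summed to 3216 CPM in DKO548, within the 1892 to 4600 CPM of the 15 lines. Of these, Cd5 was at 0.230 CPM in DKO548, within 0.142 to 21.2 CPM over the lines. No B-lineage (0 of 5) or erythroid (0 of 6) marker was listed. The 2 listed myeloid markers of 6 summed to 10.7 CPM in DKO548 and to between 5.48 and 13.98 CPM over all lines, with Lyz2 at 0 in DKO548. Of 6 stromal or epithelial markers 2 were listed, with Col1a2 at 218 CPM in DKO548 and up to 947 CPM elsewhere and Epcam at 0 in DKO548, and their part in the results was not tested. Lef1, on chromosome 3, was at 103 CPM in DKO548, within a range of 59.0 to 1558 CPM over the lines, and its floxed part cannot be read from gene totals.

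Mouse thymic leukemias often carry whole extra chromosomes. Genes on an extra chromosome tend to give more RNA together, each by a modest amount, while genes under strong control in the cell can move on their own. Chromosome 1 of the mouse holds genes with many unrelated jobs, among them replication helicases, mitochondrial enzymes, the Cd28 family of T cell costimulatory receptors and the Slam family of leukocyte receptors. The DNA copy number of the lines was not measured in the data used here. The paper reports spectral karyotyping of DKO leukemias, and those karyotypes were not used here.

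The promoters of 4 of the 5 members that stood furthest above the other lines in DKO548 are shown, since these genes carry the widest gaps described below. The fifth, Utp14b, starts inside the Acsl3 transcript. Each sequence is the 250 bases before the start of the gene on its own strand, 5′ to 3′, from RefSeq on GRCm38.p6. Capitals mark matches to the motif CCAAT, the motif GGGCGG or the motif TATAAA on either strand. Obsl1 lies on the minus strand (chr1:75506453-75506702), Idh1 on the minus strand (chr1:65186480-65186729), Acsl3 on the plus strand (chr1:78657575-78657824) and Bag2 on the minus strand (chr1:33757751-33758000).
Obsl1: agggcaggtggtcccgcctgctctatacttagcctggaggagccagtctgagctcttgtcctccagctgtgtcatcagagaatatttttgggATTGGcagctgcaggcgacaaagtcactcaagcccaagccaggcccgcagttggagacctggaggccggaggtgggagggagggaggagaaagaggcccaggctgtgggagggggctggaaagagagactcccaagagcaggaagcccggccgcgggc
Idh1: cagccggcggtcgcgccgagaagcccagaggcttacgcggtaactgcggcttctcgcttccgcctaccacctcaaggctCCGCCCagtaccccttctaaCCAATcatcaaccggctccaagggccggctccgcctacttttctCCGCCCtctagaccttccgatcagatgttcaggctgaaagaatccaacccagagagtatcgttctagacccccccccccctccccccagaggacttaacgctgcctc
Acsl3: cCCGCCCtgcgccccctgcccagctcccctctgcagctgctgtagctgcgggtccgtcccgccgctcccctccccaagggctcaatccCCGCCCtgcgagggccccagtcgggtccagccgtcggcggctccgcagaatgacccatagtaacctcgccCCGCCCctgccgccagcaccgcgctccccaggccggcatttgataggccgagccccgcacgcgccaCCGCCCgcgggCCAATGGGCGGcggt
Bag2: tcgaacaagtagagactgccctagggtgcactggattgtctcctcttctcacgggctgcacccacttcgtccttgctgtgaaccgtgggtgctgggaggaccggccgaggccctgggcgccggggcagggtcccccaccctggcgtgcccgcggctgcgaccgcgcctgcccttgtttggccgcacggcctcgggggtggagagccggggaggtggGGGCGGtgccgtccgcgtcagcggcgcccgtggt

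The 4 promoters differ in composition. The Obsl1 window held 7 CpG dinucleotides and no GGGCGG, whereas the Acsl3 window held 28 and 5 matches to GGGCGG. The Idh1 window had 18 CpG, 1 CCAAT and 2 GGGCGG, and that of Bag2 25 CpG and 1 GGGCGG. A promoter was matched for 450 of the 552 members. CCAAT, allowed to overlap the others, was found in 37.8% of these against 34.5% of all 27025 promoters, GGGCGG in 61.8% against 32.9%, and TATAAA in 18 members against 13.0% of all. All promoters include those of genes not expressed here. Among the 7180 promoters matched to genes of other chromosomes with a mean of at least 5 CPM, the shares were 37.9%, 62.2% and 5.59%, close to those of the members for the first and second motif. The shift in DKO548 (defined below) had a median of 0.29 in members with CCAAT and 0.25 without it, of 0.27 and 0.24 for GGGCGG, and of 0.35 and 0.26 for TATAAA. Members in 3 equal groups by CpG count, from the lowest to the highest, had medians of 0.23, 0.25 and 0.31. The median shift was thus above 0 in members with and without each motif, and none of these differences was tested.

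Across chromosome 1, gene expression was higher in DKO548 than in the other lines. The shift of a gene in a line is log2(CPM + 1) less the 15-line median of that gene, and less the median of this quantity over all autosomal genes of the line. The median shift of the 552 members was 0.26 in DKO548, which is 1.20-fold on a linear scale. The middle part of the members, from the lower to the upper quartile, ran from 0.030 to 0.48. In the other 14 lines the median shift lay between -0.079 in DKO79.9 and 0.032 in DKO713, with an SD of 0.029 over these lines. The medians of most of these lines were 0 or close to it, because each gene is set against its own median. For the same reason, a shift shared by most lines would be read as close to 0 in them. The 0.032 of DKO713 has the size of the autosomal median (-0.032) that was removed from that line. For scale, a gene with 3 copies in place of 2 and RNA in proportion would be at 0.58 on the log2 scale, and 5 in place of 4 at 0.32. These values are given as a scale only, and a change of copy number as a cause of the shift was not tested.

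**Figure D1:**
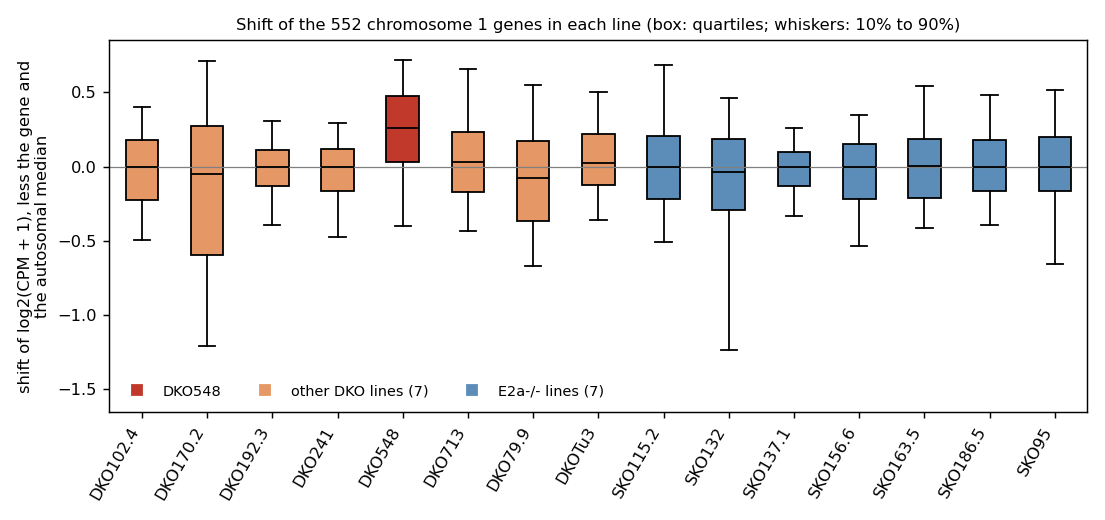
Shift of the 552 chromosome 1 genes in each of the 15 lines (vertical axis: log2(CPM + 1) less the 15-line median of each gene and the autosomal median of each line; boxes span the quartiles with a line at the median, whiskers the 10th to 90th percentiles). The box of DKO548 lies above 0 with a median of 0.26, while the medians of the other lines lie between -0.079 and 0.032.

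In DKO548, 429 of the 552 members were above the median of the gene, or 77.7%, where the share over all 9707 genes was 44.9%. The same share was 38.8% to 57.4% in the other 14 lines. DKO548 held the highest value of all 15 lines for 159 members (28.8%), against 6.95% of all genes. Outside chromosome 1 this held for 516 of 9155 genes (5.64%), and chromosome 1, with 5.69% of the genes, held 23.6% of the 675 genes highest in DKO548. The line with the next largest number of highest members was DKO170.2 with 75, or 13.6%, but 16.8% of all genes were highest in that line. SKO115.2 followed with 59 members (10.7%, against 8.80% of all genes). At the other end, 11 members were lowest in DKO548 (1.99%), against 9.16% of all genes. Of the 552 members, 95 were at least 1.5-fold above the median of the gene in DKO548, where the background is 7.30% of all genes. In the other 14 lines this number ran from 20 in DKO241 to 74 in DKO170.2. At least as far below the median were 45 members in DKO548, against 29 in DKOTu3 to 139 in DKO170.2. The share of all genes that far below it was not computed.

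**Figure D2:**
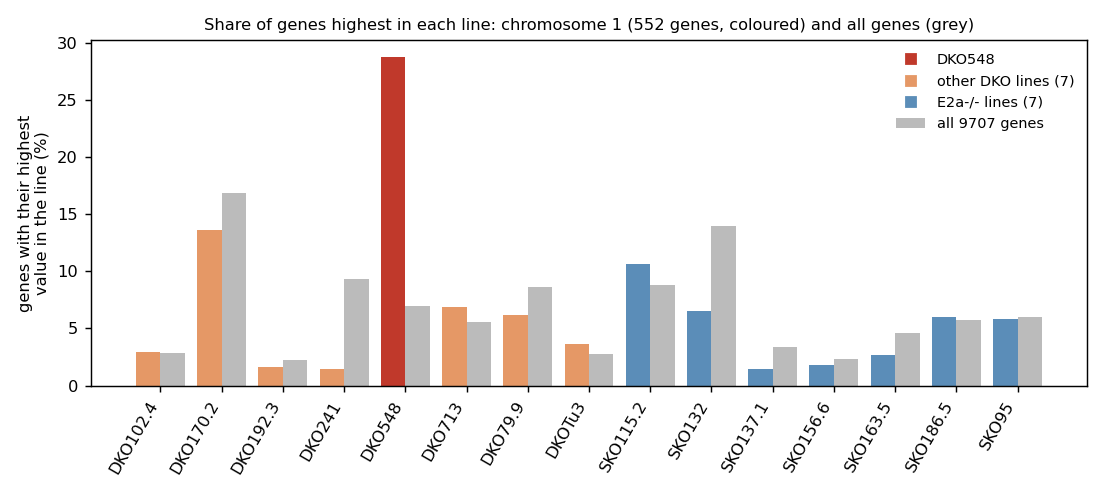
Percent of genes whose highest value of the 15 lines falls in each line, for the 552 chromosome 1 genes (coloured bars) and all 9707 genes (grey bars). DKO548 reaches 28.8% on chromosome 1 against 6.95% over all genes, and no other line exceeds 13.6% on chromosome 1.

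As a description from the same values, all 722 listed chromosome 1 genes together took 7.13% of the reads of DKO548. The 95% Wilson interval was 7.12% to 7.14%, for counting error only. Among the other lines these genes took 5.45% in DKO79.9 to 6.22% in SKO163.5 and SKO115.2. The SD of this share over the other 14 lines was 0.267 percentage points.

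Other autosomes of DKO548 were also shifted. Chromosome 6 had a median shift of 0.23 (454 genes) and chromosome 14 of 0.20 (342 genes), whereas the lowest was chromosome 7 at -0.14. Chromosomes 11 and 19 were at 0.096 and 0.095. The 18 other autosomes had a median of -0.033. Chromosome 1 was the highest autosome of DKO548, and in none of the other 14 lines was chromosome 1 the highest of the 19. Of 285 medians of a line and an autosome, that of chromosome 1 in DKO548 ranked 6. Those above it were chromosome 14 in SKO132 and SKO137.1 (both 0.48), chromosome 11 (0.47) and chromosome 5 (0.41) in DKO241, and chromosome 6 in SKO163.5 (0.31). The shares of genes highest in DKO548 were 22.0% on chromosome 6, 19.3% on chromosome 19 and 6.14% on chromosome 14, where SKO132 and SKO137.1 were higher.

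**Figure D3:**
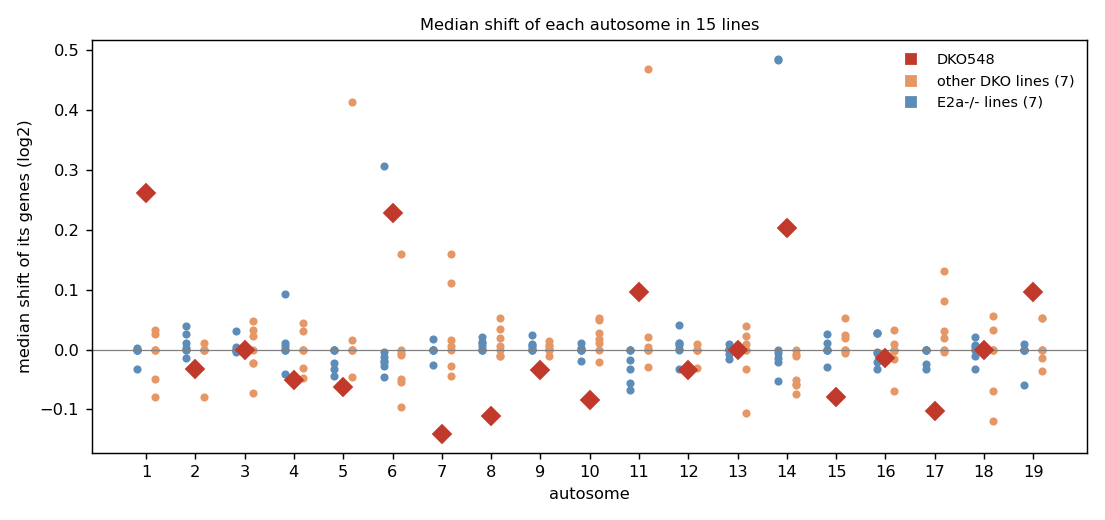
Median shift (log2) of the genes of each autosome in the 15 lines (points; DKO548 as diamonds). DKO548 is the only line far from 0 on chromosome 1, at 0.26, and also lies high on chromosomes 6 (0.23) and 14 (0.20).

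To see whether the whole of chromosome 1 or a piece was shifted, members were divided into bins of 10 Mb by their start as the table lists it. There were 19 bins with 7 to 56 members each, and the bin from 110 to 120 Mb held none. In DKO548 all 19 bin medians were above 0, from 0.067 at 140 to 150 Mb to 0.46 at 60 to 70 Mb. A limit of 0.2 was passed by 13 bins, against 5.04% of the 3435 bins of the other autosomes over all lines. The highest of the 15 lines was DKO548 in 15 bins, the exceptions being the bins that start at 10, 100, 140 and 150 Mb. In these 4 bins DKO548 was at 0.18, 0.14, 0.067 and 0.15, and the highest other lines were DKO170.2 (0.20), SKO95 (0.49), SKO132 (0.32) and SKO186.5 (0.25). The share of a bin's members that were highest in DKO548 ranged from 15.4% to 44.4%, so no bin was without such genes.

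**Figure D4:**
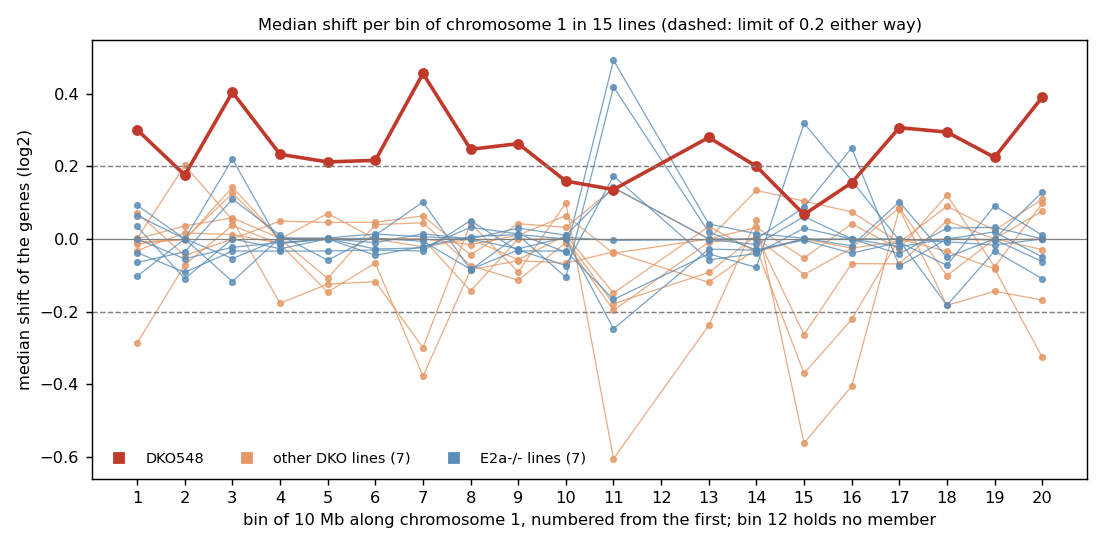
Median shift (log2) of the members in each bin of 10 Mb along chromosome 1, 1 line of points per leukemia line, with the limit of 0.2 dashed. DKO548 is above 0 in all 19 bins, from 0.067 to 0.46, while the other lines scatter around 0 and pass the limit in single bins or in pairs of adjacent bins.

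A segment shift was defined as 3 or more adjacent bins all past the limit on the same side. DKO548 had 2 of them, from 20 to 90 Mb (7 bins, 206 genes, median 0.26) and from 160 to 200 Mb (4 bins, 152 genes, median 0.30). The bins between them were above 0 as well, and the first bin was at 0.30. The members that start in the first 100 Mb had a median of 0.26 (n = 271) and those beyond it also 0.26 (n = 281). The best place to split the chromosome in DKO548, with at least 30 genes on each side, was between 175653814 and 175677424, with medians of 0.24 for 476 genes before it and 0.33 for 76 after it. The difference of the means there was 2.14 times the error expected from the spread of the genes, and 65.3% of the 285 pairs of a line and an autosome had a larger one, 7 of them on chromosome 1 in other lines. With 1 split, no boundary between a shifted and an unshifted part of chromosome 1 was found in DKO548. A lower stretch inside the chromosome, with a boundary on either side, cannot be read from 1 split. Between the 2 segments, the bins from 90 to 160 Mb ran from 0.067 to 0.28. Of these, only that from 120 to 130 Mb passed the limit. Whether this stretch was shifted less than the rest was not tested.

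No other line had a segment shift of chromosome 1 by this definition. Of the 266 bin medians of the other 14 lines, 6 were above the limit and 12 below it, with 4.16% of bins below it on the other autosomes. DKO170.2 and DKO79.9 had 5 bins below each, and the longest run of either was 2 bins. With bins of 5 Mb, DKO170.2 had 1 run of 4 bins below the limit, from 140 to 160 Mb (45 genes, median -0.41), which was the only segment in another line under the settings tried. In 10 Mb bins the same stretch of DKO170.2 was at -0.56 and -0.41, and DKO79.9 was at -0.37 and -0.22 there. DKO79.9 was the shallowest library, and DKO170.2 had the widest spread of members among the DKO lines other than DKO548, with a lower quartile of -0.59, and the part of depth and spread in these runs was not tested. Among the other autosomes, a segment was found in 11 of 270 pairs of a line and an autosome (4.07%). These pairs included DKO548 itself, with higher segments on chromosome 6 (50 to 110 Mb) and chromosome 11 (10 to 40 Mb). On chromosome 14 it had higher segments from 20 to 50 Mb and from 100 to 130 Mb. Of the lines other than DKO548, SKO132 had the best split with the largest difference, at 4.56 times the error expected from the spread, with mean shifts of -0.091 for 460 genes before 173518755 and -0.61 for 92 genes from there on. The medians there were -0.033 and -0.081, so a subset of the 92 genes carried the low mean.

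The shift was spread over the members and not carried by a few. The 10th and 90th percentiles of the shift in DKO548 were -0.41 and 0.74, and the extremes were Dst at -6.04 and Obsl1 at 6.06. In 3 groups of 184 members by mean level, the median shift was 0.22, 0.27 and 0.28 from the lowest to the highest, and the share highest in DKO548 20.1%, 28.3% and 38.0%. Members were also divided by their SD over the other 14 lines. Of the steadiest 184, 89.7% were above 0 in DKO548 with a median of 0.23, and of the most variable 184, 58.7% with a median of 0.20. By summed exon length the medians were 0.18, 0.28 and 0.34 from the shortest to the longest. The other lines differed by length as well, with medians in the longest group of -0.41 to 0.096 and in the shortest of -0.098 to 0.13.

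Neighbouring genes were examined where both are members and their starts face away from each other within 1000 bp. There were 46 such pairs, in 37 of which (80.4%) both genes were above 0 in DKO548, and in none were both at or below 0. On the other autosomes both genes were above 0 in 28.1% of 684 such pairs and neither in 36.7%, and on chromosome 1 77.7% of single members were above 0. In 7 pairs on chromosome 1 (15.2%) both genes were highest in DKO548, against 8 pairs (1.17%) on the other autosomes. Of overlapping pairs, both genes were above 0 in 18 of 24 on opposite strands and 8 of 11 on the same strand, and neither in 1 and 2. Overlapping pairs were not counted on the other autosomes. Idh1 and Pikfyve, a lipid kinase gene, start 271 bp apart, and both were highest in DKO548 with shifts of 1.15 and 0.88. Dtl and Ints7 start 229 bp apart, with shifts of 0.49 and 0.40. The 66 members that overlap another member may share reads, since the strand setting of the counting is not given in the sources used here.

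The largest gap was at Obsl1, which codes for a cytoskeletal adaptor protein. It was at 72.2 CPM in DKO548. The other 7 DKO lines ran from 0 to 24.3 CPM with a median of 9.69, and the 7 E2a-/- lines from 0 to 14.9 CPM with a median of 0. It was thus off or nearly off in many lines and highest in DKO548. Obsl1 overlaps Chpf on the same strand, whose shift in DKO548 was 0.39, and reads of the pair may not be separable. Idh1, the cytosolic isocitrate dehydrogenase, was at 149 CPM in DKO548. It ran from 42.2 to 82.2 CPM (median 65.8) in the other DKO lines and from 41.1 to 83.2 CPM (median 66.4) in the E2a-/- lines. DKO548 lay above both groups, 2.25-fold over the median of the other 14 lines, while these groups overlapped almost fully.

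Bag2, a co-chaperone of Hsp70, was at 81.4 CPM in DKO548. The other DKO lines ran from 9.66 to 50.1 CPM (median 36.5) and the E2a-/- lines from 24.8 to 44.3 CPM (median 37.2). Acsl3, which activates long-chain fatty acids, was at 197 CPM in DKO548. The other DKO lines had 54.5 to 124 CPM (median 82.2) and the E2a-/- lines 73.1 to 121 CPM (median 105). The overlapping Utp14b was at 61.2 CPM in DKO548 and 7.21 to 30.4 CPM elsewhere. Its start is 213 bp from that of Acsl3 on the same strand, and reads of the pair may not be separable.

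Of the others among the 10 members with the widest gaps, Aspm, a spindle pole protein, was at 268 CPM in DKO548 and 61.9 to 180 CPM elsewhere. Abcb6, a transporter of the ABC family, was at 64.6 CPM against 20.6 to 44.4 CPM, and D2hgdh, which oxidises D-2-hydroxyglutarate, was at 40.9 CPM against 12.9 to 28.3 CPM. Zbtb37 was at 23.8 CPM against 1.53 to 15.5 CPM, and 2810459M11Rik at 62.3 CPM against 3.92 to 40.4 CPM. Since these genes were picked for the gap, their separation from the other lines is what the choice fixes.

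**Figure D5:**
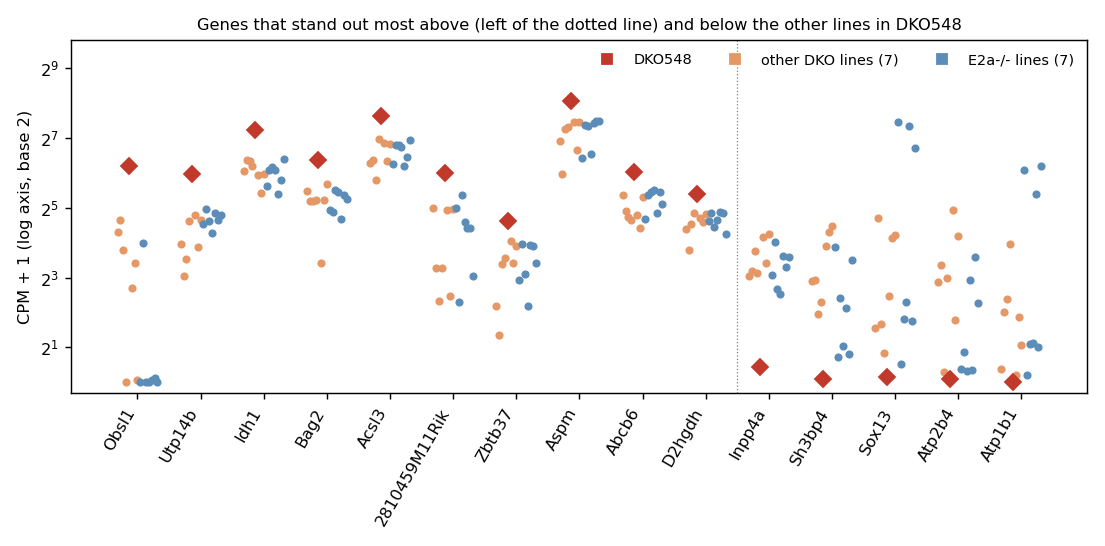
CPM + 1 on a log axis (base 2) in the 15 lines for the 10 members with the widest gap above the other lines and the 5 with the widest gap below them in DKO548 (diamonds). The points of the other DKO and the E2a-/- lines overlap for each of the 10 genes on the left, where DKO548 stands above, as for Idh1 at 149 CPM against at most 83.2 CPM.

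A small group of members went the other way. Inpp4a, a phosphatase of phosphoinositides, was at 0.345 CPM in DKO548, against 7.33 to 17.98 CPM in the other DKO lines and 4.76 to 15.3 CPM in the E2a-/- lines. Sh3bp4, Sox13, Atp2b4 and Atp1b1 were at or under the amount that 3 reads give in DKO548, and their lowest values elsewhere were 0.662, 0.441, 0.234 and 0.145 CPM. The last of these values is also within 3 reads of its own line, so that Atp1b1 is not told apart there. The other 6 of the 11 lowest members were Gm2710, Glul, Arl8a, Kdm5b, Ptpn18 and Pdcd1. Inpp4a was thus read in every other line, with 4.76 CPM as the lowest value, whereas the other 4 were low in several lines.

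Genes of DNA replication, repair and mitosis on chromosome 1 had the highest median of the 7 lists examined, at 0.36, with 20 of 22 members above 0 and 12 highest in DKO548. For all members the median was 0.26, with 429 of 552 above 0 and 159 highest. Mcm6, a subunit of the replicative helicase, was at 1152 CPM in DKO548, against 767 to 939 CPM in the other DKO lines (median 800.3) and 788 to 1131 CPM in the E2a-/- lines (median 825). Mcm3, another subunit, was at 884 CPM against 582 to 828 CPM in the other 14 lines. Both were highest in DKO548 but by a narrow margin over SKO95. Parp1, which senses breaks in DNA, was at 772 CPM against at most 677 CPM, Cenpf, a kinetochore protein, at 353 CPM against at most 295 CPM, and Dtl, a receptor of a ubiquitin ligase, at 424 CPM against at most 335 CPM. Bard1, Psmd1, Kif14, Exo1, Nvl and Nek2 were also highest in DKO548, with shifts of 0.26 to 0.54. Of these, Psmd1 is a subunit of the proteasome and Nvl an ATPase of ribosome assembly, and without both the list had 18 of 20 members above 0, 10 highest and a median of 0.36. Cenpl (-0.011) and Smarcal1 (0) were the 2 members that were not above 0.

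Genes of mitochondria and metabolism had a median of 0.30, with 20 of 22 members above 0 and 6 highest. Hspd1, the mitochondrial chaperonin, was at 990.0 CPM in DKO548 against 390 to 953 CPM elsewhere. Besides it and Idh1, Atic, Dars, Aldh9a1 and Tfb2m were highest in DKO548. The exceptions were Cox5b (-0.028) and Glul, glutamine synthetase, which had no read in DKO548 and 0.0966 to 45.003 CPM elsewhere, so that DKO548 is not told apart from the lowest other line. Genes of RNA processing and translation had a median of 0.16, with 19 of 23 members above 0 and 4 highest (Eif5b, Cnot9, Ncl and Eif4e2). Ncl, the nucleolar protein nucleolin, was at 3296 CPM in DKO548 and 1637 to 2899 CPM elsewhere.

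Immune receptors went both ways. Of the 12 members on the list of T cell receptor, costimulation and leukocyte surface genes, 5 were above 0 in DKO548 and none was highest, with a median of -0.089 and a range from -3.46 to 1.07. For all members the shares were 77.7% above 0 and 28.8% highest, and the difference was not tested. Cd28, the costimulatory receptor, was at 274 CPM, below 292 CPM in DKO102.4 and above the other 13 lines. Its neighbour Icos was at 1.09 CPM, where the other 14 lines ran from 0.221 to 90.8 CPM. Pdcd1, an inhibitory receptor, was at 0.920 CPM and lowest, next to 0.933 CPM in another line. Ptprc (CD45) was at 619 CPM within 340 to 936 CPM, and Cd247, the zeta chain of the receptor complex, at 124 CPM within 101.8 to 215 CPM.

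The remaining lists lay between. Lymphocyte signalling enzymes had a median of 0.15, with 9 of 15 above 0 and 2 highest (Cul3 and Ptpn14). Ptpn14, a tyrosine phosphatase, was at 932 CPM in DKO548 and 89.8 to 665 CPM elsewhere. Transcription and chromatin factors had a median of 0.14, with 12 of 19 above 0 and 3 highest (Rbbp5, Btg2 and Cdc73), and Kdm5b, a histone demethylase, was lowest at 0.115 CPM, next to 0.184 CPM in SKO95. Survival and death genes had a median of 0.22, with 5 of 7 above 0 and 1 highest (Dedd). Bcl2, the survival factor, was at 3.97 CPM, against 0.332 to 109 CPM in the other lines.

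The genotype comparison asked whether chromosome 1 genes differ between DKO and E2a-/- lines, each line counted as 1 replicate. With limma on log2(CPM + 1) over all 12545 genes, 0 of 552 members had a Benjamini-Hochberg adjusted p under 0.01, where 0.0478% of all genes did. At an unadjusted p under 0.05 there were 42 members, 7.61% against 10.2% of all genes. Of these, 22 were higher in DKO lines (background 4.33%) and 20 lower (background 5.83%). The median difference, DKO minus E2a-/-, was 0.0010 over the members and -0.019 over all genes. Without DKO548, limma again called 0 members (0.0558% of all genes), and 52 had an unadjusted p under 0.05 (10.5% of all genes). The quasi-likelihood test of edgeR on reads recovered from the table called 0 members as well (0.00797% of all genes), with 52 at an unadjusted p under 0.05, which is 9.42% of members and 10.8% of all genes. DESeq2 on these reads called 4 members at an adjusted p under 0.01 (1.41% of all genes), which were Slc9a2, Sema4c, Mixl1 and Rgs13. At an unadjusted p under 0.05 DESeq2 gave 73 members, which is 13.2% of members and 13.0% of all genes.

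The smallest p among the members was that of Mixl1, a homeobox gene. The 8 DKO lines averaged 14.1 ± 10.2 CPM (SD, n = 8), and the 7 E2a-/- lines 1.22 ± 0.936 CPM (SD, n = 7). In DKO548 it was at 2.65 CPM and in DKO713 at 2.03 CPM, both under the 2.85 CPM of SKO115.2, and the other 6 DKO lines were above all E2a-/- lines at 8.52 to 32.3 CPM. The log2 difference was 2.49 with an SE of 0.49, and its limma adjusted p was 0.0594, or 0.0235 without DKO548. Vash2 had 38.7 ± 14.6 CPM (SD, n = 8) against 7.75 ± 9.12 CPM (SD, n = 7), and a limma adjusted p of 0.0886. The remaining members in the higher direction were Slamf9, Prdx6 and Agap1, with differences of 2.22, 0.49 and 2.05.

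In the other direction, Sema4c, a semaphorin, averaged 10.9 ± 4.62 CPM (SD, n = 8) in the DKO group, and 30.5 ± 12.3 CPM (SD, n = 7) in the E2a-/- group. The log2 difference was -1.39 with an SE of 0.29 and a limma adjusted p of 0.0825. Rgs13, which damps G protein signals, was at 0 to 1.22 CPM in the 8 DKO lines and at 2.43 to 70.6 CPM in the E2a-/- lines, so the groups did not overlap (limma adjusted p = 0.0915). Tmbim1, Sp100 and Ap1s3 had differences of -2.27, -1.13 and -1.55. Slc9a2, which DESeq2 called, was at 0 in all 7 E2a-/- lines and in 4 DKO lines, at 0.447 CPM in DKO170.2, and at 43.8, 64.1 and 7.15 CPM in DKO102.4, DKO713 and DKOTu3. Its limma adjusted p was 0.512. None of these genes was among the members highest in DKO548.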

How the data were processed

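RNA of 15 lines was sequenced by the authors, trimmed with Trimmomatic (version 0.33), aligned with TopHat2 (version 2.1.0), counted with HTSeq (version 0.6.1) and normalised in edgeR. What they deposited is CPM, without a further factor between libraries, and the deposited width column (summed exon length) was used for ordering by length. The methods name mm10, but 0 of 542 matched members start within 1 bp of their GRCm38 position. The listed starts were a median of 1886235 bp above those of GRCm38. The last listed chromosome 1 gene ends at 196957764, beyond the last RefSeq gene end of 195291439 in GRCm38. The listed positions are thus not those of GRCm38, and their build was not identified. Positions of bins and splits are as listed and do not match the GRCm38 positions given for the promoters. The members, lists and limits were chosen with earlier results of these data known. Named genes are list members, the 10 widest gaps above and 5 below the other lines in DKO548, up to 5 members in each direction with the smallest limma p, and 3 genes on each side of the minimum. Other genes were named after their values were seen. All values are whole multiples of 1 read (100% within 0.01). Genotypes were compared with limma (version 3.58.1, trend, 2-sided), edgeR (version 4.0.16) and DESeq2 (version 1.42.0) in R (version 4.3.3). Fits and bins were tested on simulated data. The shifts planted for the bins were 1.5-fold, larger than the median shift of chromosome 1 in DKO548. Detection of a shift as small as that was not tested. p-values set the difference between genotypes against the spread between lines, which with 1 library per line includes that of cultures and libraries. Results for some list members are not reported here.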

Additional observations from a re-analysis of the deposited data

Results flagged for a closer look

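Within each genotype, the line farthest from the others was examined by Dixon's test for 4 summaries of chromosome 1, 19 bins and 25 named members, which makes 96 comparisons. By chance the test picks about 1 in 20 groups. DKO548 and 15 of the members were chosen by these values, and many of the values share genes, so nothing is read from how many were picked.

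Among the DKO lines, the values of DKO548 that were picked, given here as a description, included the median shift of chromosome 1 (0.26, the other 7 from -0.079 to 0.032), the percent of members highest in the line (28.8%, the others 1.45% to 13.6%) and the percent of reads on chromosome 1 (7.13%, the others 5.45% to 6.20%). The others were those of 4 bins, from 20 to 30 Mb (0.40), 80 to 90 Mb (0.26), 160 to 170 Mb (0.31) and 180 to 190 Mb (0.22), and the level of Inpp4a (0.345 CPM, the others 7.33 to 17.98 CPM). DKO548 was chosen by these values or by others of the same genes, and Inpp4a for its gap in that line.

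Other DKO lines stood apart in single values. DKO170.2 was at -0.61 from 100 to 110 Mb, a bin of 8 members. DKO713 was low in Bag2 (9.66 CPM, the others 35.5 to 81.4 CPM) and in Vash2 (11.8 CPM, the others 29.0 to 57.5 CPM). DKO79.9 was high in Sp100 (32.6 CPM, the others 9.34 to 16.9 CPM).

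Among the E2a-/- lines, SKO132 was at -0.033 in the median shift of chromosome 1, with the others from 0 to 0.0033, and at 0.32 from 140 to 150 Mb. The -0.033 has the size of the autosomal median (0.033) that was removed from SKO132. Chromosomes 5, 11, 12, 16, 17 and 18 of that line were also at -0.033, so this value does not set chromosome 1 apart there. The level of Obsl1 in SKO132 was 14.9 CPM, with the others at 0 to 0.0948 CPM. SKO163.5 was at 0.10 from 60 to 70 Mb, SKO95 at 0.10 from 160 to 170 Mb, and SKO95 had 0.691 CPM of Tmbim1, with the others at 8.44 to 24.7 CPM.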

How the results depend on the processing

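The median shift of chromosome 1 in DKO548 stayed above 0 under all 10 alternatives, between 0.19 and 0.31. It was 0.29 with median-of-ratios scaling, 0.31 against the median of the 7 E2a-/- lines, 0.19 as a mean over genes, and 0.31 against the median of the other 14 lines, the last chosen after seeing the data. The share of members highest in DKO548 ran from 25.5% to 31.8% over 9 alternatives, including SKO132, DKO79.9 or DKO170.2 left out and members that overlap no other, also chosen after seeing the data. The share of bins past the limit, 68.4%, was 26.3% with a limit of 0.3 and 68.4% to 89.5% otherwise. The number of segments in other lines, 0, was 1 with bins of 5 Mb. The number of members called between genotypes was 0 under 8 of 9 alternatives and 4 with DESeq2, where Mixl1, Sema4c and Rgs13 passed the threshold. Leaving out SKO132 or DKO79.9 gave 62 and 60 members at an unadjusted p under 0.05 (11.2% and 10.9%), against 42, and the shares of all genes were 12.2% and 11.4%, against 10.2%. With DESeq2 this number was 73 (13.2%), where the share of all genes was 13.0%. Adjusted p values of Mixl1 ran from 1.78e-05 with DESeq2 to 0.101 with edgeR. No named difference or shift changed its direction. Low levels depend on the pseudocount, with Obsl1 at 8.54 and Inpp4a at -4.33 with a pseudocount of 0.1. No paired analysis was possible because the lines are separate leukemias and their labels give no number that pairs them across genotypes. With 1 library per line, the spread between cultures of DKO548 is unknown, and values at or under 0.173 CPM in that line are not told apart from 0.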
